A study of Mus musculus with 34 samples.

Results

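Acetylation of lysine 9 of histone H3 (H3K9ac) was compared between hippocampal microglia of FGR mice and of control (Ctrl) mice, in 4 libraries per group, 8 of the 32 libraries of the series that came with a peak list. The series title concerns growth restriction in the uterus, and its question is what that restriction does to histone marks of microglia. The genotype of both groups was Tmem119-tdTomato+/-, a red reporter at a gene that marks microglia, and chromatin was taken from the hippocampus at 3 weeks after birth for replicates 1 to 3, while replicate 4 carries no age label in either group. The assay was ULI-NChIP-seq, an immunoprecipitation of native chromatin scaled down for few cells. The labels used here do not say how growth was restricted, which sex the mice were, or whether a replicate is a mouse, a pool or a repeat of the same chromatin, so p-values measure the spread between these libraries, which may be technical.

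H3K9ac sits on the nucleosomes that flank the start sites of transcribed genes and, at lower levels, on active enhancers. It is written mainly by the acetyltransferases GCN5 and PCAF, removed by histone deacetylases and sirtuins, and read by bromodomain and YEATS domain proteins. At genes that define a cell type it often spreads from the start into the gene body, and in microglia such genes are those for purinergic, chemokine and lipid-sensing receptors and for the lysosome, many of them bound by the ETS factor PU.1.

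In libraries labelled H3K9ac, peaks were shorter in FGR at genes of microglial identity and immune function and at long distal regions that carried H3K27ac in both groups, with less H3K27ac length in FGR. Length also fell at many genes used by all cells, such as 50 of 61 histone and 43 of 82 ribosomal protein genes. Falls in length were thus not particular to microglial genes. Peaks were longer, or present where Ctrl libraries had none, at developmental, axon guidance and predicted genes and at many distal sites, most of them without H3K27ac or H3K4me3 peaks. Peaks were also narrower in FGR in general, so lists and most named genes are also given by a measure that does not use width, the rank of the best peak. The likeness of libraries did not bear out the mark labels of FGR, so H3K9ac below means the libraries so labelled.

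Promoters of genes whose H3K9ac length changed most in either direction are given, from RefSeq in build GRCm38.p6. Each window spans 250 bases before to 50 bases after the start. These promoters are examples, and CpG counts over all tested genes are given further below. Capitals mark CpG dinucleotides. P2ry13 (chr3:59210833-59211132, minus strand, 6 CpG) and P2ry12 (chr3:59262936-59263235, minus strand, 4 CpG), neighbouring purinergic receptor genes, had few CpG and less H3K9ac in FGR. Cep43 (chr17:8165268-8165567, plus strand, 29 CpG), for a centrosomal protein, had many and also less. Gm40369 (chr6:47652651-47652950, plus strand, 7 CpG), a predicted gene, and Ap5b1 (chr19:5567774-5568073, plus strand, 44 CpG), for a subunit of an adaptor complex of endosomes, had more H3K9ac in FGR. The Ap5b1 promoter lies inside the gene (5560250 to 5571262), outside the windows around its ends. The H3K9ac length of Ap5b1 was thus not measured at the printed promoter.
P2ry13: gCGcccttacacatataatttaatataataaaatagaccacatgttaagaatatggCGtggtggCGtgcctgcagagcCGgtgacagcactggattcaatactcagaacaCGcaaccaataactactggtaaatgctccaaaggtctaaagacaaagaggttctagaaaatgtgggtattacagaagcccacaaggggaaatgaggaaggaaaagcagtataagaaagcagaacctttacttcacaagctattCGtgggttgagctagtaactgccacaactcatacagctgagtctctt
P2ry12: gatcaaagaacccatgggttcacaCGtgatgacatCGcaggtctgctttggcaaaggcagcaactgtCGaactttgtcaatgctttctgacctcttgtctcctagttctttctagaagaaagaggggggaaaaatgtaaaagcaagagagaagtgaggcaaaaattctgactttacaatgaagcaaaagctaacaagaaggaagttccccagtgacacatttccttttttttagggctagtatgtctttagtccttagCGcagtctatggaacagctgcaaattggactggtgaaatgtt
Cep43: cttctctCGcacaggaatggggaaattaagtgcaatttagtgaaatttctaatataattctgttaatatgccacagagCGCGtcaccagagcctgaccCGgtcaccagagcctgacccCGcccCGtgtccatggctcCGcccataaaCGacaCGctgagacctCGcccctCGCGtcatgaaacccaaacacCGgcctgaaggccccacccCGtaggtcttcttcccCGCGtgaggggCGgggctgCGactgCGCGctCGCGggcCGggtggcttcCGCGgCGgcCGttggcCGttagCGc
Gm40369: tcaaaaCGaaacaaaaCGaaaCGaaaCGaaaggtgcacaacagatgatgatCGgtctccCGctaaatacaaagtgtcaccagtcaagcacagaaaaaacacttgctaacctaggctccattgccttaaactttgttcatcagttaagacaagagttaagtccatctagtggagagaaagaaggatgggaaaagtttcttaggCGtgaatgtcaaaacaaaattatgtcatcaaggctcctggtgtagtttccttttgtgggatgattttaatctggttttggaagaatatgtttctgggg
Ap5b1: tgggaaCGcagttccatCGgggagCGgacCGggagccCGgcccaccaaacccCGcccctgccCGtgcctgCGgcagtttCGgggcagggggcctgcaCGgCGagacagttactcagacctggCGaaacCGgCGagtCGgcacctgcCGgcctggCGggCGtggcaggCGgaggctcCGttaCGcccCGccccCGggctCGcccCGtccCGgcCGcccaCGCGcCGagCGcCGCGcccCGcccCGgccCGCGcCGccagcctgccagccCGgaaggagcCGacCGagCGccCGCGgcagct

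Several facts about the libraries bear on every result. No read counts came with the peak lists, so depth is unknown; the local background solved from each peak's fold and p-value had a lowest value of 0.523 to 0.659 in FGR libraries, against 2.35 to 2.63 in Ctrl libraries. The share of peaks with a background within 2% of that lowest value was 67.7 to 70% in FGR and 42.9 to 46% in Ctrl. The highest fold over background was 106 to 153 in FGR and 24.5 to 27.2 in Ctrl. The part of this difference in the results below was not tested, and it cannot be told apart from the groups. Replicates 1 and 4 were more alike than other replicates: their peaks shared a Jaccard index (shared over total covered length) of 0.632 in FGR, where the other pairs had 0.431 to 0.461, and of 0.727 in Ctrl, where the other pairs had 0.635 to 0.658. Counts are therefore also given without replicate 4. Pairs across the groups had 0.284 to 0.306. As a check of the mark label, gene-end lengths of FGR H3K9ac libraries correlated across 16008 genes at a mean r of 0.692 with FGR H3K4me3, 0.666 with Ctrl H3K9ac, 0.601 with Ctrl H3K27ac and 0.55 with FGR H3K27ac libraries. They were thus no closer to H3K9ac of Ctrl than to H3K4me3 of their own group, whereas FGR H3K27ac libraries had 0.922 with Ctrl H3K27ac. Ctrl H3K9ac libraries correlated at 0.876 with FGR H3K4me3, higher than with FGR H3K9ac. Ctrl H3K4me3 libraries correlated at 0.765 with FGR H3K4me3 and 0.531 with FGR H3K9ac. A change of the mark and an exchange of the H3K9ac and H3K4me3 labels in FGR therefore cannot be told apart with these lists. This touches every difference below. The other marks differed between the groups across the genome as well. By limma with Benjamini-Hochberg adjustment, H3K27ac length was lower in FGR at 81.6% of gene ends and 55.5% of distal regions tested and higher at 0.185% and 0.464%. H3K4me3 length was higher in FGR at 95.5% of gene ends and 81.6% of distal regions. It was lower at 0.105% of distal regions and at 0 gene ends by limma, also at an unadjusted p under 0.05.

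The covered genome was compared first over whole libraries. FGR lists held 78656, 87128, 69954 and 54853 peaks, against 45436, 46698, 47729 and 42220 in Ctrl, with no overlap (exact permutation p = 0.0286, two-sided, the smallest that 4 against 4 libraries allow). Despite the longer lists, the genome covered within 2.5 kb of a gene end was 22.1 ± 2.57 Mb in FGR and 21.3 ± 0.337 Mb in Ctrl (SD, n = 4 each; exact p = 0.657), and the distal genome, farther than 2.5 kb from any gene end, 21.8 ± 4.54 Mb and 22.1 ± 0.885 Mb (exact p = 0.914). The FGR libraries lay on both sides of the Ctrl libraries in both measures. With all lists cut to the 42220 peaks with the lowest p-values, the length of the shortest list, distal coverage was 14.4, 15.2, 13 and 13.4 Mb in FGR, against 20.8, 21.1, 21.3 and 21 Mb in Ctrl (0.667-fold; n = 4 each, exact p = 0.0286). Coverage at gene ends in the cut lists was 18.8 ± 1.12 Mb in FGR and 21 ± 0.172 Mb in Ctrl (0.896-fold; n = 4 each, exact p = 0.0286). At equal list length FGR libraries thus covered less than every Ctrl library in both places. Of peaks in the cut lists, 53.3 ± 0.876% had a distal summit in FGR and 58.4 ± 0.235% in Ctrl (n = 4 each, exact p = 0.0286), whereas as deposited the shares were 60.4 ± 2.18% and 59.7 ± 1.09% (n = 4 each, exact p = 0.629).

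**Figure D1:**
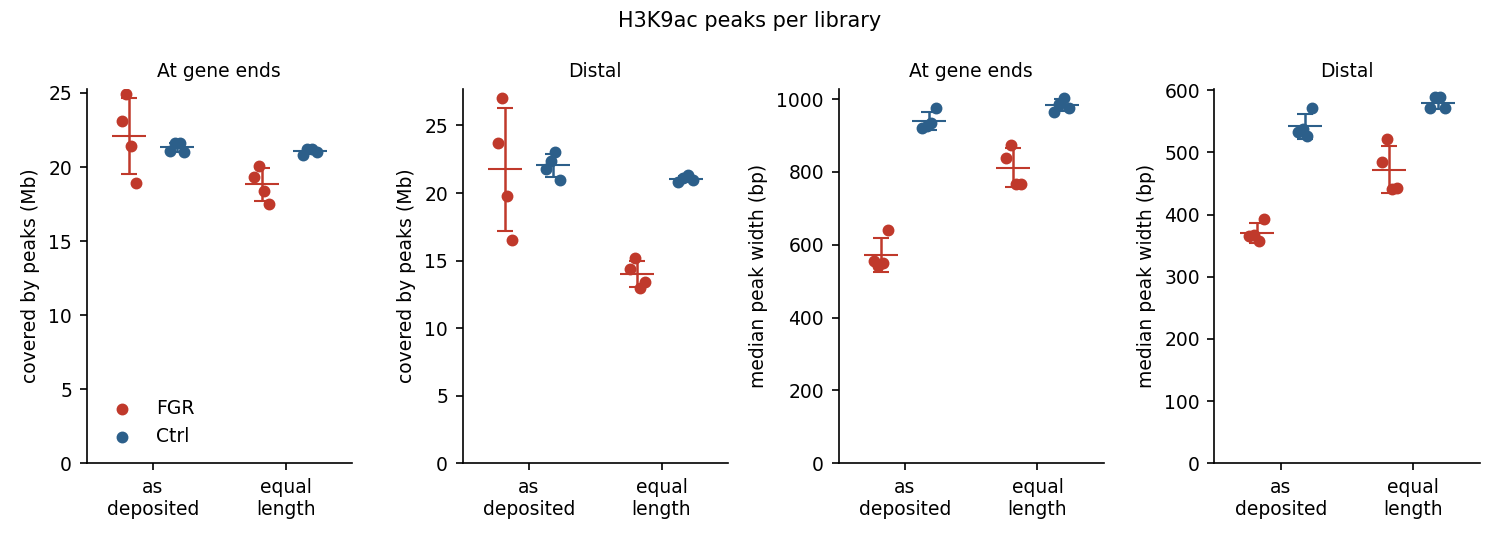
Genome covered by H3K9ac peaks (Mb) and median peak width (bp), at gene ends and distal, in lists as deposited and cut to equal length. Points are libraries, FGR left of Ctrl in each pair; lines and bars are mean and SD of 4 libraries. Coverage of the groups overlaps as deposited and separates at equal length, and FGR peaks are narrower in all 4 pairs of groups.

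Peak shape differed at both places. The median width at gene ends was 555, 542, 551 and 640 bp in FGR, against 920, 927, 935 and 977 bp in Ctrl, and at distal sites 365, 367, 357 and 393 bp against 533, 537, 527 and 572 bp (n = 4 each, exact p = 0.0286 for both). Peaks of at least 4 kb numbered 86 to 154 in FGR and 553 to 596 in Ctrl, and peaks of at least 2 kb 1366 to 2024 and 4197 to 4379. Long peaks were thus fewer in every FGR library than in any Ctrl library, in counts that were not split by gene. More genes carried a peak within 1 kb of an end: 13917 ± 504 in FGR and 11544 ± 100.2 in Ctrl, and at equal list length 12845 ± 141 and 11432 ± 41.1 (n = 4 each, exact p = 0.0286 for both). The mark also reached more of the 3' ends. Among the 13367 genes of known strand and longer than 5 kb, 3088 to 4597 in FGR and 2087 to 2268 in Ctrl were covered at the far end, with mean lengths there of 0.257 ± 0.0544 kb and 0.16 ± 0.00423 kb (n = 4 each, exact p = 0.0286). At the starts the mean length was 0.909 ± 0.0605 kb in FGR and 1.02 ± 0.0113 kb in Ctrl (n = 4 each, exact p = 0.0286). At equal list length the difference in mean length at the far end was 0.0232 kb and no longer passed (n = 4 each, exact p = 0.143). The number of genes covered there still separated, with 2691, 2752, 2821 and 2376 in FGR and 2052, 2088, 2084 and 2087 in Ctrl (n = 4 each, exact p = 0.0286).

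The next question was which genes gained or lost the mark. The length of H3K9ac peaks within 2.5 kb of either end was compared for 15605 protein-coding genes with a peak in at least 2 libraries. By limma with Benjamini-Hochberg adjustment, the test behind every adjusted p, 4446 genes (28.5% of those tested) were higher in FGR and 4682 (30%) lower; the median difference over all genes was 0.0307 kb. At equal list length 3251 of 14557 genes (22.3%) were higher and 5443 (37.4%) lower, with a median of -0.136 kb. Values of the groups did not overlap at 3953 genes higher in FGR (25.3%) and 4489 lower (28.8%) as deposited, and at 2805 (19.3%) and 5142 (35.3%) at equal length. Of the 4682 genes lower as deposited, 4649 were also lower at equal length; of the 4446 higher, 3187 were also higher and 3 were lower. Without replicate 4 of both groups the counts as deposited were 4217 higher and 3817 lower, and at equal length 2713 and 4421.

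The shape of a fall differed from that of a rise. At 93.7% of genes lower in FGR all FGR libraries still had a peak, and at 2.5% none had. At 32.9% of genes higher in FGR no Ctrl library had a peak. A fall at a gene end was thus mostly a shorter covered length in a window that kept a peak. A rise was often a peak where Ctrl had none, and such genes could enter the test only through FGR peaks.

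Genes were also compared by measures other than covered length. The part of peak width in the calls was not tested. In lists of equal length the rank of the best peak in each window, with the lowest p-value first, was better in FGR at 5768 genes (39.6%) and worse at 1867 (12.8%), on a scale of log2 of the rank, where a positive difference is a better rank in FGR and a window without a peak is placed after the last peak. Of the 5443 genes with shorter coverage in FGR, 1308 also ranked worse, 1392 ranked better and 2743 passed in neither direction. Replacing each peak by 500 bp around its summit, a measure that grows with the number of separate peaks, gave 2900 genes (18.6%) higher and 454 (2.91%) lower as deposited, and 1337 (9.21%) and 676 (4.66%) at equal length. Rank is therefore given for the lists and for most of the genes below, as a difference in log2 rank, against 39.6% better and 12.8% worse over all genes.

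Receptor genes of resident microglia were among the largest falls. P2ry12, which encodes the ADP receptor that steers microglial processes (chromosome 3, 59216271 to 59262985), had 1.69, 1.28, 1.82 and 1.5 kb of H3K9ac in FGR libraries, against 7.38, 6.78, 7.21 and 7.1 kb in Ctrl libraries (difference -5.54 ± 0.162 kb, SE; limma adjusted p = 3.32e-07). Its best peak stood at ranks 11141 to 13911 in FGR and 442 to 1006 in Ctrl. P2ry13, its neighbour and also an ADP receptor gene, had 2.56, 2.63, 0.921 and 2.1 kb in FGR, against 7.63, 7.53, 7.66 and 7.92 kb in Ctrl (limma adjusted p = 7.47e-06). In every Ctrl library 1 peak filled the P2ry13 window, whereas FGR libraries had 2 to 6 peaks there, and the best of them ranked at 10659 to 26598, against 269 to 2643. H3K27ac peaks remained long at both genes, with 7.95 kb in FGR and 9.69 kb in Ctrl at P2ry12 and 7.44 and 7.99 kb at P2ry13 (means of 4 libraries). Adora3, an adenosine receptor gene, had 1.97 ± 0.294 kb in FGR and 6.75 ± 0.509 kb in Ctrl (SD, n = 4; limma adjusted p = 3.81e-06), but more summits in FGR, and it was higher in FGR by the 500 bp measure as deposited (0.704 kb, limma adjusted p = 0.00469). Siglech, a sialic acid receptor of microglia, had 1.72 ± 0.273 kb in FGR and 4.64 ± 0.799 kb in Ctrl. Adora3 and Siglech also ranked worse, by -1.6 and -2.24 (limma adjusted p = 0.00294 and 0.00887).

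Of 30 homeostatic receptor and surface genes tested, 18 fell and 4 rose, with a median difference of -1.33 kb. Their best peaks followed at equal list length, with 16 of 29 ranked worse and 3 better. Tmem119 (chromosome 5, 113793729 to 113800396), whose locus also drives the reporter, went the other way in length: it had 4.77, 6.3, 5.85 and 4.88 kb in FGR, against 4.72, 3.62, 4.08 and 4.1 kb in Ctrl (limma adjusted p = 0.0138). Its best peak nonetheless ranked worse, at 8143 to 13263 in FGR and 1813 to 7501 in Ctrl (difference in log2 rank -1.88, limma adjusted p = 0.00628), and in lists of 20000 peaks its length was lower in FGR (-0.327 kb, limma adjusted p = 0.443). At equal length its call was lost without FGR replicate 3 (limma adjusted p = 0.0531) or Ctrl replicate 2 (limma adjusted p = 0.058). H3K27ac at Tmem119 was 1.41 kb in FGR and 7.11 kb in Ctrl. Selplg, the P-selectin ligand gene that is its neighbour on chromosome 5, also rose in length, with 4.76 ± 0.859 kb in FGR and 2.79 ± 0.656 kb in Ctrl (limma adjusted p = 0.00544), while its rank hardly moved (-0.0697, limma adjusted p = 0.871).

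Secreted and enzyme genes of the homeostatic state fell at 19 of 30 and rose at 1, and 13 of 30 ranked worse and 6 better. Hpgds, for the prostaglandin D2 synthase of myeloid cells, had 0.254, 0.508, 0 and 0.26 kb in FGR, against 4.53, 5.09, 5 and 4.54 kb in Ctrl (limma adjusted p = 7.28e-07), and a worse rank (-6.95, limma adjusted p = 1.6e-05), with no peak in 3 of 4 FGR libraries at equal length. Mpeg1, for the pore protein perforin-2 of phagocytes, had 1.44 ± 0.451 kb in FGR and 6.3 ± 0.832 kb in Ctrl (limma adjusted p = 2.62e-05), and a worse rank (-2.23, limma adjusted p = 0.00101). The windows of Hpgds and Mpeg1 are shared with Smarcad1 and Dtx4, so their lengths are not theirs alone.

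Among 31 cytokine and chemokine receptor genes 18 fell and 2 rose, and 12 of 29 ranked worse and 5 better. Cx3cr1, for the fractalkine receptor through which neurons signal to microglia (chromosome 9, 120048683 to 120068296), had 3.83, 3.86, 3.42 and 3.66 kb in FGR, against 5.95, 6.26, 7.15 and 6.04 kb in Ctrl (limma adjusted p = 5.75e-05). Its best peak ranked worse (-2.13, limma adjusted p = 0.00334), at 4453 to 10632 in FGR and 1346 to 4113 in Ctrl, while by the 500 bp measure as deposited the sign turned (0.637 kb, limma adjusted p = 0.324). H3K27ac there was 6.33 kb in FGR and 9.77 kb in Ctrl, and H3K4me3 5.21 and 2.72 kb. Olfr111, an olfactory receptor gene outside these lists, was listed at 0 in all FGR libraries, against 4.75, 5.75, 5.39 and 5.11 kb in Ctrl (limma adjusted p = 6.82e-07), with H3K27ac of 5.98 kb in FGR and 7.41 kb in Ctrl and H3K4me3 of 3.02 and 0.191 kb. Its locus in FGR was thus marked by the other 2 modifications and listed without this one.

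Leukocyte surface genes fell at 24 of 28 and rose at 2 (median -1.46 kb), and 27 of 28 had a best peak that ranked worse, against 0 that ranked better by limma, also at an unadjusted p under 0.05. Havcr2, for the checkpoint receptor TIM-3, had 0.805, 0.455, 0 and 0.487 kb in FGR, against 4.65, 5.19, 4.78 and 4.81 kb in Ctrl (limma adjusted p = 1.11e-06). Evi2a, a leukocyte membrane protein gene that shares its window with Evi2b and Evi2, had 1.2 ± 0.347 kb in FGR and 5.73 ± 0.446 kb in Ctrl (limma adjusted p = 4.27e-06). Havcr2 ranked worse by -2.37 and Evi2a by -2.71 (limma adjusted p = 0.000207 and 5.35e-05). Cd37, a tetraspanin gene, rose in length (4.72 ± 0.356 kb in FGR, 2.48 ± 0.056 kb in Ctrl; limma adjusted p = 1.73e-05) but ranked worse (-3.45, limma adjusted p = 0.00412), with 5 or 6 separate peaks in FGR and 1 or 2 in Ctrl. Its sign in length turned in lists of 20000 peaks (-0.464 kb).

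Signalling genes downstream of such receptors fell at 17 of 32 and rose at 4, and 15 of 32 ranked worse and 4 better. Pik3cg, for a leukocyte phosphoinositide kinase, had 0.45, 0.896, 0.394 and 0.495 kb in FGR, against 3.79, 3.43, 3.64 and 3.53 kb in Ctrl (limma adjusted p = 1.65e-06). Rasgrp3, a Ras exchange factor gene, had 1.46 ± 0.346 kb in FGR and 4.18 ± 0.179 kb in Ctrl, and Rgs2, a regulator of G protein signalling, 1.76 ± 0.336 kb and 6.23 ± 0.147 kb. Pik3cg, Rasgrp3 and Rgs2 ranked worse by -2.48, -2.97 and -3.66 (limma adjusted p = 0.00224, 0.00109 and 0.000262). Arhgap45, a GTPase activator gene of blood cells, rose, with 5.45 ± 0.691 kb in FGR and 2.61 ± 0.304 kb in Ctrl (limma adjusted p = 0.000139), in a window shared with Abca7 and Polr2e. Arl8b, for a GTPase that moves lysosomes, and Cep43 were not in these lists but were among the 10 largest falls, at 1.63 ± 0.13 kb in FGR and 6.89 ± 0.431 kb in Ctrl for Arl8b and 2.29 ± 0.311 kb and 7.29 ± 0.219 kb for Cep43, with worse ranks (-1.71 and -3.2).

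Innate sensor genes fell at 20 of 29 and 0 rose by limma, with 2 higher at an unadjusted p under 0.05, and 12 of 29 ranked worse and 6 better. Nlrp3, the inflammasome sensor, had 1.01, 1.76, 0.968 and 1.01 kb in FGR, against 4.25, 3.95, 4.08 and 3.97 kb in Ctrl (limma adjusted p = 8.96e-06). Its best peak ranked at 14385 to 28218 in FGR and 210 to 2325 in Ctrl, but its summits were more in FGR (0.78 kb by the 500 bp measure as deposited, limma adjusted p = 0.0237). Regulators of NF-kappaB fell at 10 of 19 and rose at 1; Tnfaip3, an inhibitor of the pathway, had 1.96 ± 0.365 kb in FGR and 3.86 ± 0.433 kb in Ctrl (limma adjusted p = 0.000276), with no call in rank (0.726, limma adjusted p = 0.347). Cytokine and chemokine genes fell at 13 of 32 and rose at 4, among them Pdgfb, for a growth factor of mural cells, with 4.75 ± 0.7 kb in FGR and 2.68 ± 0.272 kb in Ctrl. Interferon response genes fell at 6 of 24 and rose at 2, below the shares of all genes, but at equal list length 11 of 23 fell and 9 of 23 ranked worse. Trim30a, an interferon-induced ubiquitin ligase gene, was nevertheless listed at 0 in all FGR libraries, against 1.52, 1.46, 1.7 and 1.58 kb in Ctrl. Antigen presentation genes fell at 5 and rose at 5 of 21, below the shares of all genes. B2m, for the invariant chain of class I molecules, had 1.91 ± 0.423 kb in FGR and 4.14 ± 0.551 kb in Ctrl (limma adjusted p = 0.000314). In rank 11 of 29 cytokine and chemokine genes were worse and 3 better. Of 19 NF-kappaB regulators 2 ranked worse and 3 better, and of 20 antigen presentation genes 3 and 4. Complement and phagocytosis genes fell at 14 of 27 and rose at 5, with 15 worse and 5 better in rank. Among the rises was Fcgr3, an Fc receptor gene, with 3.15 ± 0.523 kb in FGR and 1.38 ± 0.481 kb in Ctrl (limma adjusted p = 0.00122) and a better rank (5.74, limma adjusted p = 7.1e-06).

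Transcription factor genes of microglia fell at 16 of 36 and rose at 6, and 8 of 36 ranked worse and 13 better. Maf, a factor of mature macrophages, had 3.87, 3.68, 3.82 and 3.87 kb in FGR, against 8.16, 8.03, 7.66 and 8.27 kb in Ctrl (limma adjusted p = 5.9e-07), with a small loss of rank (-0.637, limma adjusted p = 0.0178). Irf2, an interferon regulatory factor gene, had 4.53 ± 0.531 kb in FGR and 6.1 ± 0.279 kb in Ctrl, but within 1 kb of its ends the sign turned (0.234 kb, limma adjusted p = 0.201). Bhlhe40, for a repressor of the circadian and immune programmes, had 2.72, 2, 2.46 and 2.71 kb in FGR, against 0, 0, 0.456 and 0 kb in Ctrl (limma adjusted p = 2.13e-05). Cebpb, a factor of inflammatory gene expression, had 5.13 ± 0.609 kb in FGR and 3.72 ± 0.332 kb in Ctrl, with a better rank (3.04, limma adjusted p = 0.000255). Sall1, the factor that holds microglial identity, had 6.43, 5.98, 6.43 and 6.29 kb at its ends in FGR, against 6.07, 5.7, 5.32 and 5.29 kb in Ctrl (limma adjusted p = 0.0135), and a best peak at ranks 374 to 1033 in FGR and 2787 to 4194 in Ctrl. The rise in length at Sall1 was lost without replicate 4 of both groups (limma adjusted p = 0.069), within 1 kb of the ends (0.0813 kb, limma adjusted p = 0.479), at its start alone (0.025 kb, limma adjusted p = 0.823) and in lists of 20000 peaks (0.176 kb, limma adjusted p = 0.601). Of 25 immediate early genes 8 rose and 7 fell, near the shares of all genes (28.5% and 30%). Egr3 had 4.14 ± 0.459 kb in FGR and 1.84 ± 0.339 kb in Ctrl (limma adjusted p = 0.000107), and Junb 4.84 ± 0.0858 kb and 6.36 ± 0.237 kb (limma adjusted p = 3.06e-05). By the 500 bp measure Junb was higher in FGR, by 1.15 kb (limma adjusted p = 5.11e-06). In rank 7 of the 25 were better and 0 worse by limma, with 1 worse at an unadjusted p under 0.05, a smaller share in both directions than the 39.6% and 12.8% of all genes.

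**Figure D2:**
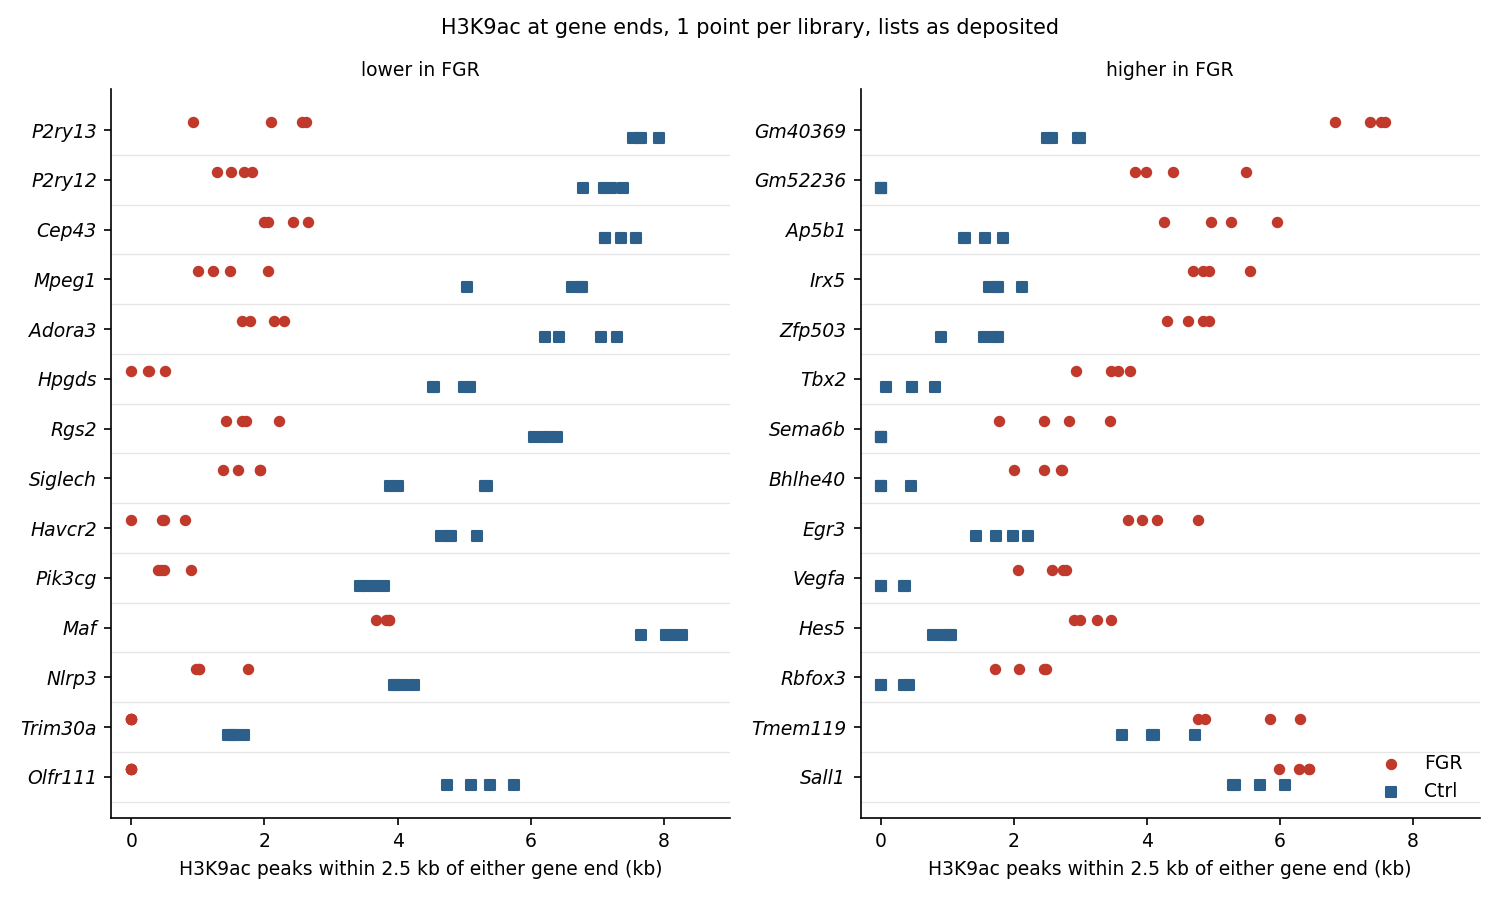
Length of H3K9ac peaks (kb, lists as deposited) within 2.5 kb of either gene end at 14 genes lower in FGR (left) and 14 higher in FGR (right). Each point is a library, FGR circles above Ctrl squares; the groups do not overlap at the genes on the left, and come closest on the right at Tmem119 and Sall1, where the lowest FGR libraries lie at 4.77 and 5.98 kb and the highest Ctrl libraries at 4.72 and 6.07 kb.

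Developmental transcription factor genes rose at 66 of 94 and fell at 0, with a median length of 0.859 kb in FGR and 0 kb in Ctrl, and 48 of 76 rose at equal list length. By the 500 bp measure 44 of 94 rose as deposited. Irx5, a homeobox gene, had 4.69, 5.55, 4.93 and 4.84 kb in FGR, against 2.12, 1.63, 1.76 and 1.74 kb in Ctrl (limma adjusted p = 7.47e-06). Tbx2, a T-box gene of heart and eye development, had 3.42 ± 0.348 kb in FGR and 0.455 ± 0.298 kb in Ctrl (limma adjusted p = 1.2e-05), and Zfp503, a zinc finger gene of the developing striatum and limb, 4.67 ± 0.279 kb and 1.48 ± 0.389 kb (limma adjusted p = 9.99e-06). H3K27ac was short or missing at all 3, at most 0.915 kb in FGR and 0.968 kb in Ctrl, while H3K4me3 reached 3.79 to 6.09 kb in FGR. Of Hox genes 28 of 35 rose and 0 fell. Ephrin, semaphorin, plexin, Slit and Robo genes, which guide axons, rose at 36 of 52 and fell at 2. Sema6b had 2.45, 3.44, 2.83 and 1.78 kb in FGR and Efna2 1.84, 4.09, 2.77 and 1.77 kb, and both were listed at 0 in all Ctrl libraries (limma adjusted p = 0.000142 and 0.00129). In rank 39 of 76 developmental, 14 of 31 Hox and 32 of 50 axon guidance genes were better. The median Ctrl length was 0 kb in the developmental and Hox lists, so that most of their members could enter the test only through FGR peaks and had no length to lose. Their counts are a description. Irx5, Tbx2 and Zfp503 ranked better by 0.885, 1.44 and 0.9 (limma adjusted p = 0.0239, 0.000752 and 0.00966), and Sema6b and Efna2 by 1.18 and 1.07.

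The longest rises were at predicted genes. Gm40369, Gm40365 and Gm40363 lie within 100 kb on chromosome 6. Gm40369 had 7.35, 7.58, 6.82 and 7.52 kb in FGR, against 2.58, 2.97, 2.5 and 3 kb in Ctrl (limma adjusted p = 1.24e-06), and its best peak held rank 7, 10, 11 and 8 in the FGR lists, against 2160, 1276, 3069 and 702 in Ctrl. Gm40365 had 7.87 ± 0.435 kb in FGR and 2.69 ± 0.417 kb in Ctrl, and Gm40363 6.68 ± 0.661 kb and 2.39 ± 0.0618 kb. Gm52236, Gm52512 and Gm51572, on chromosomes 16, 2 and 8, had no peak in any Ctrl library and no H3K27ac in either group, with 3.82 to 5.49 kb, 1.83 to 5.36 kb and 3.03 to 4.23 kb in FGR. Among annotated genes, Ap5b1 had 5.27, 4.96, 5.95 and 4.25 kb in FGR, against 1.27, 1.84, 1.25 and 1.57 kb in Ctrl (limma adjusted p = 3.93e-05), in a window shared with Ovol1, with no call in rank (0.469, limma adjusted p = 0.167). Cilp2, a cartilage matrix gene, had 3.67 ± 0.886 kb in FGR and 0.295 ± 0.376 kb in Ctrl, and Cracr2b, a calcium channel regulator gene whose window is shared with Pnpla2 and Cd151, 7.58 ± 1.06 kb and 4.21 ± 0.57 kb. Gene-dense windows recur among the rises: Atp5d, for a subunit of ATP synthase, shares its window with Cbarp and Midn and had 4.76 ± 0.495 kb in FGR and 1.67 ± 0.235 kb in Ctrl.

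Genes of other brain cells moved with these groups. Neuronal genes rose at 10 of 13 and fell at 0 by limma (0 also at an unadjusted p under 0.05), of 15 astrocyte genes 7 rose and 1 fell, of 14 genes of the oligodendrocyte lineage 7 rose and 1 fell, and of 12 genes of vessel cells 5 rose and 1 fell. Of 11 genes of lymphocytes and neutrophils 4 rose and 0 fell by limma, also at an unadjusted p under 0.05. Over all genes 28.5% rose and 30% fell. The median Ctrl length was 0 kb in the neuronal list, so most of its tested members could enter only through FGR peaks. It was 0.108 to 0.239 kb in the other lists, which also left little length to lose. These counts are therefore a description. At equal list length the rises were 10 of 13 neuronal, 3 of 11 astrocyte, 5 of 10 oligodendrocyte, 2 of 10 vessel and 3 of 9 lymphocyte and neutrophil genes, where 22.3% of all genes rose. The astrocyte and vessel shares lie near it. In rank 7 of 13, 3 of 11, 6 of 10, 1 of 10 and 3 of 9 were better. Rbfox3, which encodes NeuN, had 2.08, 2.48, 2.46 and 1.72 kb in FGR, against 0, 0.351, 0.429 and 0 kb in Ctrl, in a window shared with Engase, and Eomes, a factor of neuronal progenitors, 2.2 ± 0.309 kb and 0.189 ± 0.222 kb. Hes5, a Notch target of neural progenitors and astrocytes, had 3.15 ± 0.248 kb in FGR and 0.951 ± 0.119 kb in Ctrl, and Sox10, of the oligodendrocyte lineage, 2.3 ± 0.725 kb and 0.289 ± 0.404 kb. H3K27ac at Rbfox3, Eomes and Sox10 was at most 0.133 kb in FGR and 0 in Ctrl. Summed over 7 neuronal markers the length was 3.37 to 6.14 kb in FGR and 0 to 0.709 kb in Ctrl, with Snap25 and Gad1 at 0 in all 8 libraries, and over 8 oligodendrocyte markers 5.94 to 10.5 kb and 1.82 to 3.64 kb. The 5 astrocyte markers summed to 3.02 to 6.09 kb in FGR and 3.82 to 5.75 kb in Ctrl, with Aqp4 at 0; Slc1a3, a glutamate transporter gene among them, fell (1.14 ± 0.275 kb in FGR, 3.4 ± 0.192 kb in Ctrl). The 5 endothelial and mural markers summed to 1.27 to 4.65 kb in FGR and 1.61 to 2.11 kb in Ctrl, with Rgs5 at 0 in all 8 libraries, and the 7 lymphocyte and neutrophil markers to 2.29 to 3.29 kb and 2.27 to 3.12 kb, with Cd3e, S100a8, S100a9 and Ly6g at 0 in all 8. The 6 border-associated macrophage markers summed to 1.83 to 3.89 kb in FGR and 3.4 to 4.03 kb in Ctrl, with Lyve1 at 0 in all 8 and Mrc1, the mannose receptor gene, at 0.249 ± 0.173 kb and 2.26 ± 0.254 kb. Against these, the 10 homeostatic microglia markers summed to 26.3 to 29 kb in FGR and 49.9 to 52.7 kb in Ctrl, with Gpr34 at 0 in all FGR libraries; the labelled cell type thus had the longest sum in both groups. In lists of equal length the sums were 2.71 to 4.75 kb in FGR and 0 to 0.429 kb in Ctrl for neurons. For the oligodendrocyte lineage they were 3.79 to 5.61 kb in FGR and 1.82 to 3.64 kb in Ctrl. Other sums were then lower in FGR, with 2.19 to 2.91 kb in FGR and 3.82 to 5.17 kb in Ctrl for astrocytes and 1.38 to 2.05 kb and 2.27 to 3.12 kb for lymphocytes and neutrophils. Those of vessel cells (1.01 to 3.49 kb in FGR, 1.51 to 1.67 kb in Ctrl) and border-associated macrophages (1.56 to 3.64 kb and 3.27 to 4.03 kb) overlapped. Those of microglia were 23.1 to 26.7 kb in FGR and 49.9 to 51.9 kb in Ctrl. In bulk chromatin, fewer cells of a type and less of the mark per cell cannot be told apart, and the part of other cells in the rises was not tested.

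Lists of genes used by all cells had more falls than rises in length. Of all genes tested 30% fell and 28.5% rose. Housekeeping genes fell at 10 of 15 and rose at 1, with 3 better and 3 worse in rank. The histone, ribosomal protein, proteasome, oxidative phosphorylation and Zfp genes below also fell at larger shares than all genes. Histone genes fell at 50 of 61 and rose at 0 by limma, also at an unadjusted p under 0.05 (median -0.798 kb), yet 31 of 61 had a better-ranked best peak in FGR and 9 a worse one, and 13 rose and 0 fell by the 500 bp measure as deposited (2 lower at an unadjusted p under 0.05, limma). H2bc6, in the histone cluster of chromosome 13 and sharing its window with H4c4 and H1f4, had 3.34, 3.33, 3.31 and 3.41 kb in FGR, against 6.12, 5.86, 5.82 and 6.58 kb in Ctrl (limma adjusted p = 6.69e-06), with no call in rank (0.448, limma adjusted p = 0.372) and 4 peaks in every FGR library against 3 in every Ctrl library. Cytosolic ribosomal protein genes fell at 43 of 82 and rose at 11, mitochondrial ones fell at 31 of 78 and rose at 5, proteasome genes fell at 16 of 38 and rose at 1, oxidative phosphorylation genes fell at 41 of 80 and rose at 6, and Zfp genes fell at 167 of 357 and rose at 33. In rank each of these 5 lists had a smaller share better and a larger share worse than all genes (39.6% and 12.8%), with 11 better and 16 worse of 82, 23 and 14 of 78, 8 and 6 of 38, 22 and 15 of 79, and 95 and 83 of 353. Rps27a, a ribosomal protein and ubiquitin fusion gene, lost rank (-1.77, limma adjusted p = 0.0078), with 0.872 ± 0.1 kb in FGR and 3.18 ± 0.0469 kb in Ctrl. Of 21 glycolysis genes 7 fell and 5 rose, and of 27 cell cycle genes 8 fell and 6 rose. Of 26 genes of disease-associated microglia 8 fell and 6 rose, and of 9 genes of border-associated macrophages 1 fell and 2 rose. The glycolysis, cell cycle, disease-associated and border-associated counts lie near or below the shares of all genes in length.

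The machinery of acetylation was marked in both directions. Of 21 acetyltransferase genes and their partners 3 rose and 5 fell, near or below the shares of all genes, and at equal list length 11 of 20 ranked better and 0 worse by limma, with 1 worse at an unadjusted p under 0.05. Kat2a, which encodes GCN5, had 3.74, 4.18, 3.09 and 2.79 kb in FGR, against 2.23, 1.75, 1.96 and 2.04 kb in Ctrl (limma adjusted p = 0.00229), in a window shared with Dhx58, Hspb9 and Rab5c. Ep300, for the acetyltransferase p300, had 2.19, 2.12, 3.3 and 2.2 kb in FGR, against 3.41, 3.58, 3.61 and 3.46 kb in Ctrl (limma adjusted p = 0.006), but a better rank in FGR (1.25, limma adjusted p = 0.0305). Of 20 deacetylase and corepressor genes 10 rose and 4 fell, and at equal length 6 and 5 of 19, with 4 better and 2 worse in rank. Sirt6, a sirtuin that removes H3K9ac, had 2.46 ± 0.521 kb in FGR and 1.18 ± 0.0495 kb in Ctrl (limma adjusted p = 0.00151), and Ncor1, a corepressor that carries HDAC3, 2.35 ± 0.113 kb and 3.33 ± 0.331 kb (limma adjusted p = 0.00107), again with a better rank in FGR (1.1, limma adjusted p = 0.0347). Readers of acetylation rose at 3 and fell at 9 of 20, and genes that supply acetyl-CoA rose at 1 and fell at 6 of 10. In rank 11 of 20 readers and 4 of 10 supply genes were better and 1 of each worse. The supply genes lie near the shares of all genes in rank (39.6% better and 12.8% worse). Kat2a and Sirt6 had no call in rank (-0.107 and -0.146, limma adjusted p = 0.647 and 0.623).

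Genes tied to growth and to stress hormones and hypoxia were also split. Of 20 insulin and growth factor signalling genes 11 rose and 5 fell, and 12 of 19 ranked better and 0 worse by limma, also at an unadjusted p under 0.05. Irs1, an insulin receptor substrate gene, had 2.18, 2.16, 1.51 and 1.2 kb in FGR, against 0, 0.598, 0.295 and 0 kb in Ctrl (limma adjusted p = 0.000824). Of 20 stress hormone and hypoxia genes 6 rose and 9 fell, where 28.5% of all genes rose and 30% fell. Their rises thus lie near the share of all genes. Vegfa, the vascular growth factor gene, had 2.74, 2.79, 2.58 and 2.06 kb in FGR, against 0, 0.352, 0.366 and 0 kb in Ctrl (limma adjusted p = 1.81e-05). In rank 12 of 19 stress hormone and hypoxia genes were better and 3 worse. Irs1 and Vegfa ranked better by 1.82 and 1.57 (limma adjusted p = 0.000255 and 0.000337).

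The same Ctrl H3K9ac libraries were also set against the FGR libraries labelled H3K4me3. Of 14315 genes 36.3% were then higher in FGR and 12% lower. Of 29310 distal regions 12.7% were higher and 32.1% lower. Homeostatic receptor and surface genes were lower at 15 and higher at 5 of 29, and leukocyte surface genes lower at 13 and higher at 4 of 30. Innate sensors were lower at 5 and higher at 8 of 29, and histone genes lower at 7 and higher at 10 of 61. Developmental transcription factor genes were higher at 76 of 80, Hox genes at 28 of 33 and axon guidance genes at 34 of 50. Of the named genes 37 were called in the same direction, 13 kept the direction without passing and 10 turned. P2ry12 was then higher in FGR by 0.871 kb (limma adjusted p = 0.000874), Maf by 0.344 kb (limma adjusted p = 0.0453) and B2m by 1.54 kb (limma adjusted p = 0.00134). Selplg was lower by -1.48 kb (limma adjusted p = 0.0029) and Pdgfb by -2.17 kb (limma adjusted p = 2.71e-06). Sox10 differed by -0.289 kb (limma adjusted p = 0.204). The directions at these genes thus depend on which FGR libraries hold H3K9ac.

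**Figure D3:**
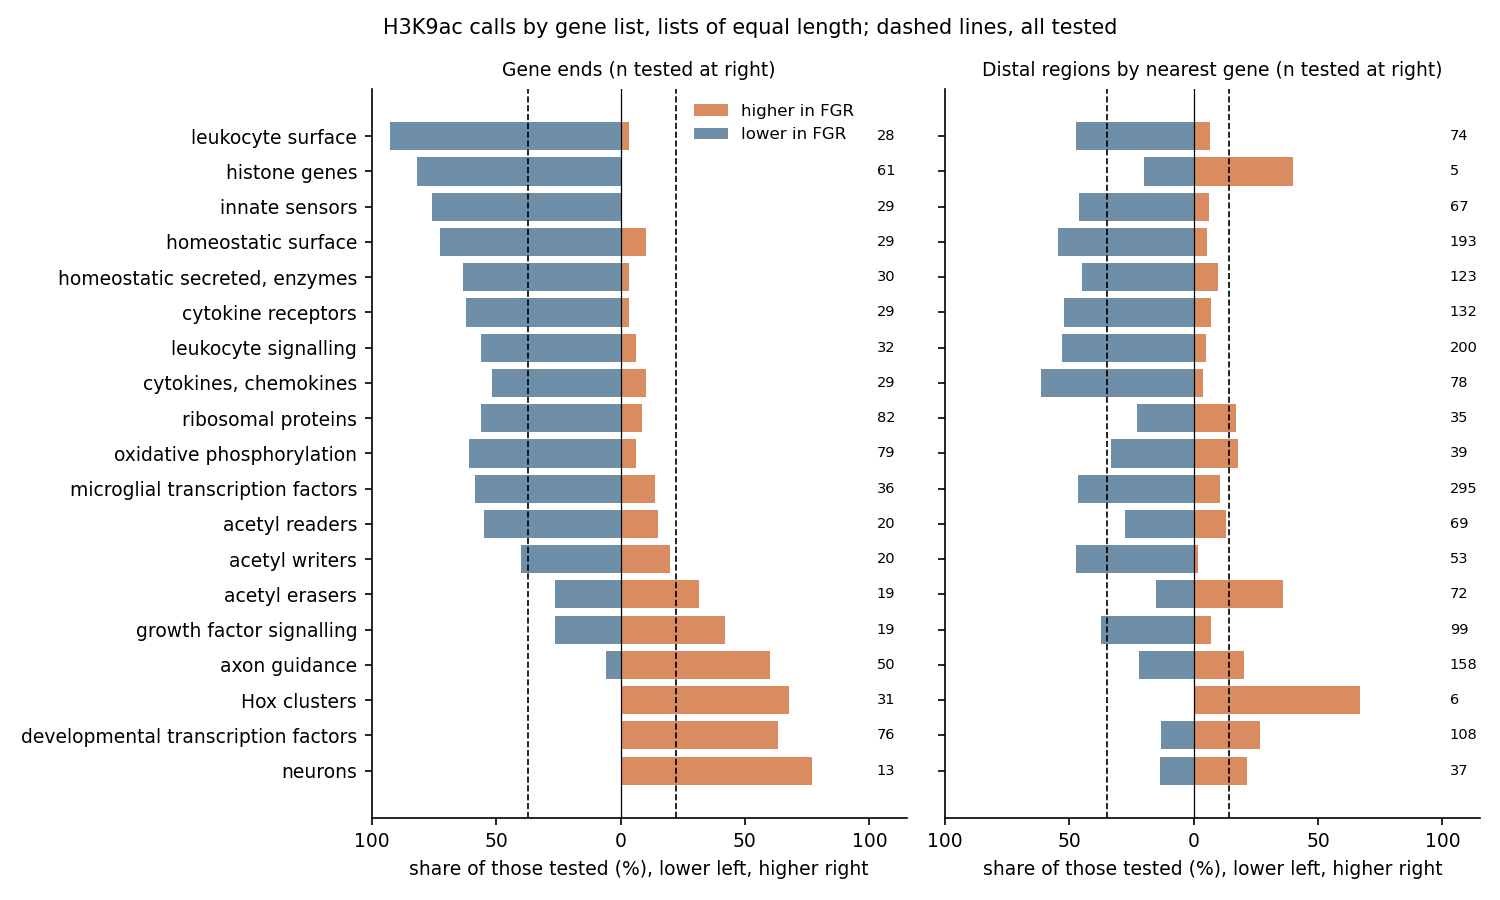
Share of genes (left) and of distal regions with a nearest gene end within 100 kb (right) called lower (bars to the left) or higher (bars to the right) in FGR, in lists of equal length, for 19 gene lists; the number tested stands at the right of each bar and dashed lines mark the shares over all tested. Leukocyte surface genes fell at 26 of 28 gene ends and developmental transcription factors rose at 48 of 76.

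H3K27ac of the Ctrl libraries, a mark not used in the comparison, divided the calls. At equal list length H3K9ac was lower in FGR at 1.06% of genes without H3K27ac in Ctrl, 16.9% of those with up to 1 kb, 45.5% at 1 to 2 kb, 62% at 2 to 4 kb, 67.6% at 4 to 6 kb and 74.4% of the 289 genes with more. It was higher at 58.6% of genes without H3K27ac, 26.3% of those with up to 1 kb, and 6.6 to 11.2% of the others. Genes without the mark in Ctrl could enter the test mainly through peaks in FGR, which bears on the first of these shares. Longer H3K27ac domains also leave more H3K9ac length to lose, so the rise of the shares of falls over the classes is a description.

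**Figure D4:**
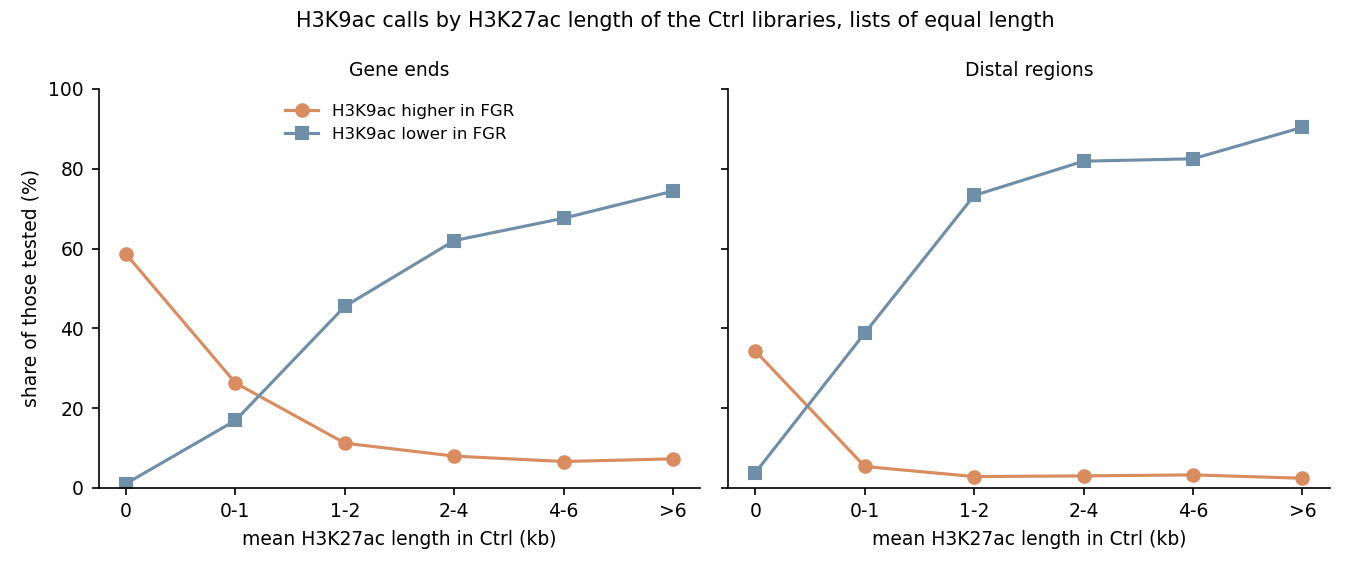
Share of genes (left) and distal regions (right) called higher or lower for H3K9ac in FGR, in lists of equal length, by the mean length of H3K27ac peaks in the 4 Ctrl libraries (kb). Falls reached 74.4% of genes and 90.4% of distal regions with over 6 kb, and rises were most frequent without H3K27ac, at 58.6% and 34.3%.

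Promoter sequence was set beside the calls for the 11620 genes tested at equal length that have a window in the RefSeq table. By covered length, genes higher and lower in FGR had a median of 20 and 21 CpG, as all tested genes had 20. By rank they differed: 22 CpG at genes that ranked better in FGR and 14 at genes that ranked worse, where 22.8% of promoters held 5 or fewer, against 8.36%. Genes with a better rank made up 22.6% of those with 0 to 2 CpG and 51% of those with over 30, and genes with a worse rank 25.4% and 6.73%. By length the shares of rises ranged over 20 to 24.2% and of falls over 30.8 to 42.2% of the same classes. Motifs were searched on both strands. The PU.1 site GAGGAAGT stood in 1.84% of promoters that ranked better, 5.42% of those that ranked worse and 2.9% of all tested, and by length in 1.87% of those higher and 3.47% of those lower. The ETS site CCGGAAGT, which shares GGAAGT with it, stood in 6.24% of promoters that ranked better and 8.52% of those that ranked worse, and by length in 3.78% of those higher, 10.4% of those lower and 7.54% of all. By length, in the same order, the shares for GGGCGG (SP1) were 65.5, 60.5 and 61.8%, for TGACGTCA (CRE) 1.87, 4.21 and 3.1%, and for TGANTCA (AP-1) 5, 4.92 and 5.2%. These matches are a description of 300-base windows.

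Distal sites were compared over 50678 merged regions with a peak in at least 2 libraries. In FGR 10339 (20.4%) were higher and 11410 (22.5%) lower, and at equal list length 5407 of 33615 (16.1%) higher and 11398 (33.9%) lower. Values of the groups did not overlap at 7233 regions higher (14.3%) and 9320 lower (18.4%), and at equal length at 3244 (9.65%) and 9103 (27.1%). Without replicate 4 of both groups 8740 were higher and 9402 lower, and at equal length 3413 and 9166. The rises at equal length also numbered 3545 without FGR replicate 4 alone, and 3259, 3282, 3314 and 3262 without Ctrl replicate 1, 2, 3 or 4. Of the 5407 rises, 84.7% had no peak in any Ctrl library. A test with fewer libraries also has less power, so these counts do not tell which libraries the rises rest on. Of regions lower as deposited, 49.8% had no peak in any FGR library, and of regions higher, 87.2% had none in any Ctrl library. Regions without a peak in 1 group could pass the filter only through the other group, so these shares are a description. Distal regions are merged peaks of these same libraries, whereas gene windows are fixed spans. The shares therefore cannot be compared with those at gene ends.

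The regions that fell and rose differed in their other marks. Of the 11398 that fell at equal length, 76.9% had an H3K27ac peak in all 4 FGR libraries and 88% in all 4 Ctrl libraries, and 60.4% had H3K4me3 in all FGR and 6.33% in all Ctrl libraries. Regions not called had H3K27ac in all FGR libraries at 23.2% and in all Ctrl libraries at 36.8%. They had H3K4me3 at 21.1% and 2.43%, so that both marks shifted the same way there. Of the 5407 that rose, 6.77% had H3K27ac in all FGR and 9.67% in all Ctrl libraries, and 66% had no peak of either mark in any library, against 37.3% of regions not called and 0.904% of those that fell. Falls made up 3.8% of regions without H3K27ac in Ctrl, 38.8% of those with up to 1 kb, 73.3% at 1 to 2 kb and 90.4% of the 125 with over 6 kb. As at gene ends, longer H3K27ac domains leave more H3K9ac length to lose, so the order of these shares is a description. At gene ends, 96% of genes that fell and 30.5% of those that rose had H3K27ac in all FGR libraries, and 98.7 and 87% had H3K4me3.

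A stricter count took regions that all 4 libraries of 1 group list and none of the other group does. As deposited, 6225 distal regions were called in FGR alone and 4108 in Ctrl alone, and at gene ends 3284 and 962. At equal list length the distal order turned, with 2567 in FGR alone and 5089 in Ctrl alone, and gene ends had 1433 and 1333. Without FGR replicate 1, 2, 3 or 4 the distal count for FGR alone was 6630, 7378, 9547 or 7864. The rule asks for fewer libraries in each case, and why the count was largest without replicate 3 was not tested.

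Of the 8 regions with the longest falls, 7 lay inside coding genes. The longest, on chromosome 8 from 89382878 to 89399044, lies 339 kb from Sall1, the nearest coding gene end. It had 6.52, 5.93, 5.09 and 5.09 kb of H3K9ac in FGR, against 14.8, 15.1, 14.7 and 15.7 kb in Ctrl (limma adjusted p = 8.71e-08), while H3K27ac covered 14.7 ± 0.329 kb in FGR and 16.1 ± 0.0344 kb in Ctrl (SD, n = 4). By 500 bp around summits it was higher in FGR as deposited (3.62 kb, limma adjusted p = 0.00102). A region inside Rad51b, a DNA repair gene (chromosome 12, 79624261 to 79636425), had 0.98, 1.99, 1.67 and 1.2 kb in FGR, against 10.8, 11.4, 11 and 10.8 kb in Ctrl (limma adjusted p = 8.71e-09). A region inside Smap2, for a trafficking protein (chromosome 4, 120989559 to 120998110), had 0.644, 0.282, 0.571 and 0.586 kb in FGR, against 7.67, 7.2, 7.7 and 7.72 kb in Ctrl, and none in FGR at equal list length. In Mef2c, a factor of microglia and neurons (chromosome 13, 83568629 to 83576892), 0.485, 0.842, 0.984 and 0.265 kb were covered in FGR and 7.78, 7.75, 8.18 and 7.79 kb in Ctrl. The rule that chose these 8 regions asked for groups that do not overlap; they also include intervals in Map4k4, a kinase gene (2.35 ± 0.407 kb in FGR, 10.2 ± 0.137 kb in Ctrl), Epb41l2, for a membrane skeleton protein (1.29 ± 0.503 and 8.03 ± 0.155 kb), Pik3ap1, a signalling adaptor gene of leukocytes (4.87 ± 0.751 and 11.8 ± 0.563 kb), and Cflar, an inhibitor of cell death (2.38 ± 0.975 and 8.61 ± 0.422 kb). At all 8 H3K27ac covered 7.61 kb or more in FGR and 8.26 kb or more in Ctrl. It was shorter in FGR at each, as at Map4k4 with 8.93 kb in FGR and 11.5 kb in Ctrl. H3K4me3 was longer in FGR. Both are the direction of most distal regions tested for those marks.

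The longest distal rises had little of either mark or none. A region 10.2 kb from Dsg2, a desmosome gene, on chromosome 18, from 20614751 to 20623804, had 8.87, 8.48, 8.13 and 8.93 kb in FGR and none in Ctrl (limma adjusted p = 3.59e-09). A second one, 19.6 kb from the same gene, had 5.13, 5.38, 4.67 and 5.48 kb in FGR and none in Ctrl. The region in Ahnak2, for a large scaffold protein (chromosome 12, 112775792 to 112784772), had 8.35, 6.06, 7.99 and 7.69 kb in FGR, and that 201 kb from Lama2, a laminin gene (chromosome 10, 27818420 to 27825618), 6.69, 7.15, 6.6 and 7.05 kb, both against none in Ctrl. Regions near Gpr158, S100a7l2 and, at 2 places on chromosome 6, Atg7 had 3.41 to 5.22 kb in FGR and none in Ctrl. H3K27ac was at most 0.0372 kb at any of these 8 in FGR and absent in Ctrl, and H3K4me3 was found in FGR at the Atg7 regions alone, with 0.373 and 0.49 kb. Gains also lay close together: in the Mb of chromosome 6 that starts at 114000001, near Atg7, 61 of 96 tested regions rose at equal length, and in that of chromosome 10 that starts at 80000001, 40 of 89.

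**Figure D5:**
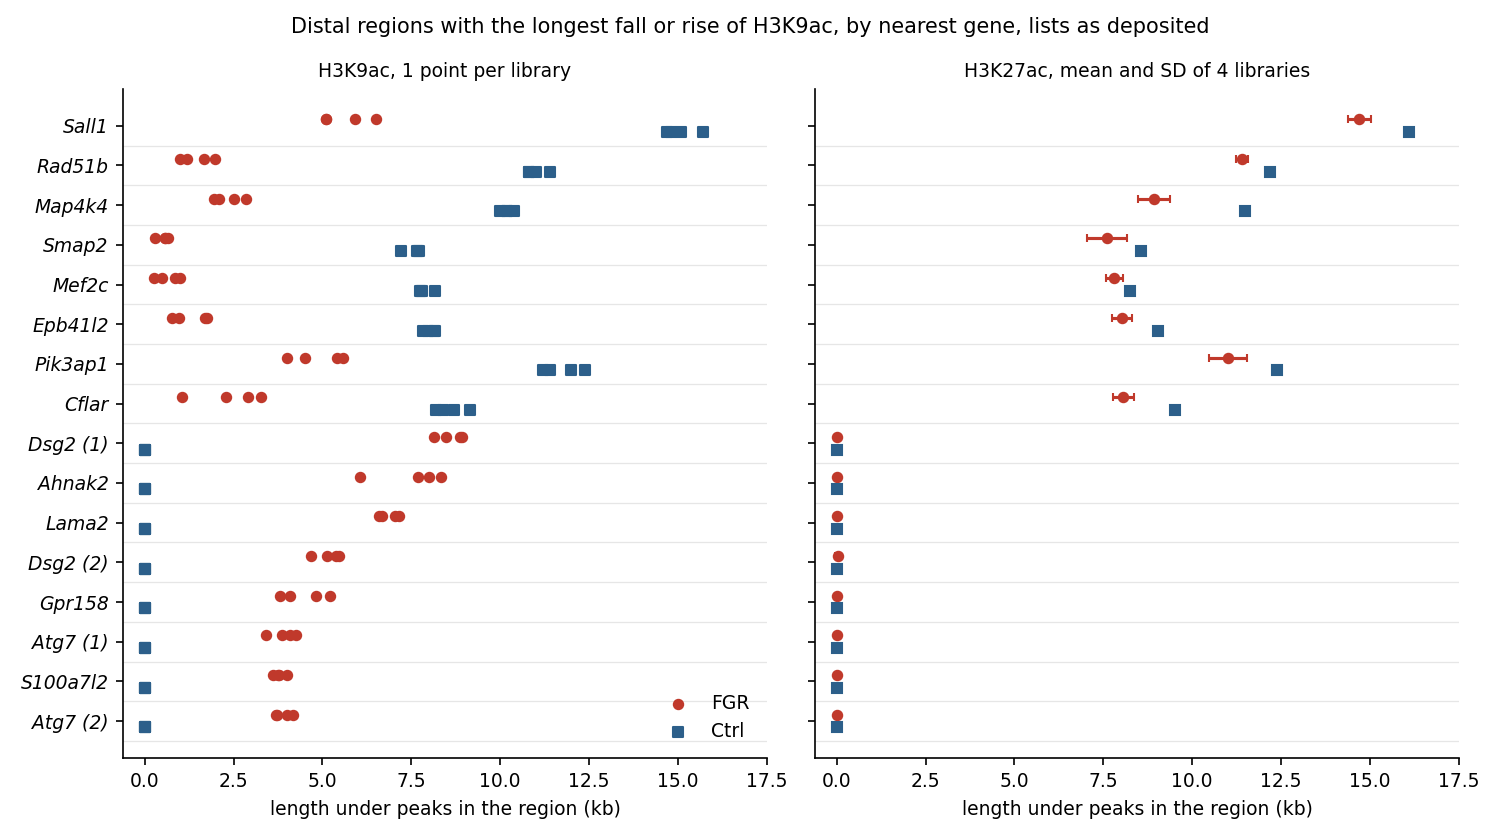
The 8 distal regions with the longest fall (upper rows) and the 8 with the longest rise (lower rows) of H3K9ac in FGR, named by the nearest coding gene end; Dsg2 and Atg7 each name 2 regions. Left, length under H3K9ac peaks per library (kb, lists as deposited), FGR circles above Ctrl squares; right, mean and SD of H3K27ac length over 4 libraries per group. Falling regions have 7.61 kb or more of H3K27ac in FGR, while rising regions have at most 0.0372 kb.

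Grouped by the nearest coding gene within 100 kb, distal regions of some lists had the balance of their gene ends and those of others had not. Over all such regions 34.8% fell and 14% rose at equal length, with a median difference of -0.181 kb. Of 193 regions near homeostatic receptor and surface genes 105 fell and 10 rose (54.4 and 5.18%, median -0.46 kb). Falls were 48 of 78 near cytokines and chemokines (61.5%), 106 of 200 near leukocyte signalling genes (53%), 69 of 132 near cytokine receptors (52.3%) and 137 of 295 near microglial transcription factors (46.4%). Near developmental transcription factors 29 of 108 rose and 14 fell (26.9 and 13%). Near deacetylase and corepressor genes 26 of 72 rose and 11 fell (36.1 and 15.3%), and near acetyltransferase genes 25 of 53 fell and 1 rose (47.2 and 1.89%). Near axon guidance genes 32 of 158 rose and 35 fell, where 30 of 50 gene ends rose and 3 fell. Near growth factor signalling genes 7 of 99 rose and 37 fell, where 8 of 19 gene ends rose and 5 fell. Near genes of the oligodendrocyte lineage 5 of 35 rose and 7 fell. Near astrocyte genes 5 of 30 rose and 9 fell, while gene ends of both lists had more rises than falls.

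Single markers give the size of these changes. Regions nearest to P2ry12, with all 11 tested ones inside a gene body, summed to 0.401, 1.58, 1.04 and 1.02 kb in FGR, against 10.3, 11.6, 11.7 and 8.9 kb in Ctrl. Near Gpr34, an X-linked lysophospholipid receptor gene of microglia, 0, 0.254, 0.252 and 0 kb were covered in FGR, against 14.5, 15.2, 14.6 and 14.4 kb in Ctrl. Near Fcrls, an Fc receptor-like gene, FGR had 0, 0.309, 0.252 and 0 kb and Ctrl 5.55, 7.12, 4.75 and 6.21 kb. Near Cx3cr1, FGR had 3.28 to 4.48 kb and Ctrl 10 to 12 kb. The groups overlap at none of these 4. They do at Sall1 as deposited, with 4.24 to 9.27 kb in FGR and 6.79 to 9.9 kb in Ctrl, while at equal list length FGR had 3.72 to 5.41 kb and Ctrl 5.98 to 9.6 kb. Near Tmem119 FGR had 1.59 to 3.3 kb and Ctrl 1.09 to 1.44 kb as deposited, but the groups overlapped at equal list length, with 0.948 to 3.3 kb in FGR and 1.09 to 1.44 kb in Ctrl.

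Chromosome X differed from the autosomes at distal sites: 38% of its 634 tested regions rose and 19.6% fell at equal length, whereas on autosomes 12 to 18.1% rose and 29 to 41.8% fell. Its gene ends lay within the range of the autosomes, with 13.8% of 400 higher and 38.5% lower. Among autosomes, genes fell most often on chromosome 13 (52.5% lower, 13.4% higher), which holds the large histone cluster, and rose most often on chromosome 15 (31.3% higher, 26.4% lower).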

How the data were processed

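Native chromatin of hippocampal microglia was profiled for H3K9ac in 4 FGR and 4 Ctrl libraries. The submitters' processing notes name build mm10, MACS2 2.2.7.1, Bowtie2 2.4.5, DiffBind 3.12.0, SAMtools 1.3.1 and Trim Galore 0.6.5; settings, peak threshold and control libraries are not stated there. The deposited peak lists give, for each peak, a score, a fold over background (a ratio), a −log10 p and a −log10 q, each the authors' own value, with 1 list per library.

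From these lists, the kb under peaks was summed within 2.5 kb of either end of 21631 protein-coding genes and over 102404 distal regions, out of 151159 merged over the libraries of the series used here. Gene positions came from RefSeq GRCm38.p6. Lists of equal length hold the 42220 peaks of lowest p. Features with a peak in at least 2 of 8 libraries were tested with limma 3.58.1 (R 4.3.3) and Benjamini-Hochberg adjustment at 0.05, without a replicate block. Single library values were compared by two-sided exact permutation tests in scipy 1.17.1; the smallest p is 0.0286. Python 3.11.15, numpy 2.4.6, pandas 2.3.3 and matplotlib 3.10.9 were also used. The test was checked on simulated data, with changes placed only at features with long Ctrl coverage and the Ctrl spread in both groups. That check does not cover features without a Ctrl peak or groups of unequal spread.

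Genes named are the 10 per direction with the largest difference at equal length among those called in both list lengths without overlap of the groups, up to 2 called members per list and direction, and cell type markers; distal regions are the 8 per direction by the same rule. Genes of these sets are described in part, and a few of them are not reported here. Members and lists were chosen with earlier results of these data known. Alternatives were 500 bp around summits, rank of the best peak, other windows, thresholds, filters and list lengths, quantile normalization, the replicate block, FGR libraries labelled H3K4me3 in place of H3K9ac, and leaving out each library. Leaving replicate 4 out of both groups, and using the mean of replicates 1 and 4 as 1 replicate, were chosen after seeing the data.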

Additional observations from a re-analysis of the deposited data

Results flagged for a closer look

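Some single libraries stood far from the others of their group, by a gap that chance gives in about 1 in 20 groups of this size; 8 of 139 groups of genes and regions and 1 of 24 groups of library measures did. The median peak width at gene ends was 640 bp in FGR replicate 4, against 542 to 555 bp in the other FGR libraries. Among genes, Nlrp3 had 1.76 kb in FGR replicate 2 and Ep300 3.3 kb in FGR replicate 3. Mpeg1 had 5.05 kb in Ctrl replicate 4. Ctrl replicate 3 stood apart at Mrc1 with 1.88 kb, at Bhlhe40 with 0.456 kb and at Fcgr3 with 2.1 kb. The region in Smap2 had 7.2 kb in Ctrl replicate 2, and that in Mef2c 8.18 kb in Ctrl replicate 3.

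Chromosome Y was not part of any comparison. It held 158, 178, 100 and 192 H3K9ac peaks in FGR libraries, against 17, 10, 14 and 12 in Ctrl libraries. The groups did not overlap, and the labels give no sex.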

How the results depend on the processing

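Direction was kept at all 61 genes and 16 regions named when any 1 library was left out, and 61 of 2817 alternative values for them turned sign. Counts of gene ends as deposited became 2900 higher and 454 lower with 500 bp around summits, 2829 higher at the start alone, and 1715 lower with the FGR libraries labelled H3K4me3. At equal length they became 1337 higher and 676 lower with 500 bp around summits, and 5768 and 1867 by rank. Distal counts as deposited became 6765 higher and 4603 lower with 500 bp around summits, 6285 and 7009 beyond 10 kb, 4694 and 7510 at a −log10 q of at least 5, and 3710 higher with the FGR libraries labelled H3K4me3. At equal length they became 3476 higher with a peak in at least 4 libraries, 3413 higher without replicate 4 of both groups, 3465 higher and 6934 lower beyond 10 kb, and 1746 and 4590 in lists of 20000 peaks. Leaving out 1 library gave 3259 to 4788 distal rises at equal length, and 6298 to 9547 distal regions called in FGR alone. Regions called in FGR alone numbered 1433 at gene ends and 2567 distal at equal length, 1518 and 2475 at a −log10 q of at least 5, and 3542 distal with at least 50% of the region covered, where 2345 gene-end regions were called in Ctrl alone.

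Over whole libraries, the log2 difference in peaks was 0.34 at a −log10 q of at least 5 (exact p = 0.0857). Gene-end coverage differed by -2.2 Mb at equal length and -1.32 Mb at that q, distal coverage by -7.01 and -3.8 Mb, the percentage of distal peaks by -5.08 at equal length and -1.74 beyond 10 kb, and the far-end mean by 0.0232 kb at equal length. The cause of these changes was not tested.

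With 500 bp around summits as deposited, the sign turned at P2ry12 (0.498 kb), P2ry13 (1.35), Cep43 (0.343), Adora3 (0.704), Cx3cr1 (0.637), Evi2a (0.32), Rasgrp3 (0.752), Irf2 (0.0377), Nlrp3 (0.78), B2m (0.343), Junb (1.15), H2bc6 (0.5) and Egr3 (-0.0648), and at the regions of Sall1 (3.62), Rad51b (0.533), Map4k4 (0.389), Mef2c (0.231), Pik3ap1 (1.38) and Cflar (1). At equal length it turned at P2ry12 (0.187), P2ry13 (0.495), Cep43 (0.0275), Adora3 (0.203), Cx3cr1 (0.166), Evi2a (0.32), Rasgrp3 (0.377), Nlrp3 (0.316), B2m (0.214), Junb (1.15), H2bc6 (0.375), Egr3 (-0.116) and Kat2a (-0.065), and at the regions of Sall1 (1.25), Pik3ap1 (0.75) and Cflar (0.25). Within 1 kb of the ends it turned at Irf2 (0.234 as deposited, 0.102 at equal length). By rank it turned at Tnfaip3 (0.726), Junb (0.484), Ep300 (1.25), Ncor1 (1.1), H2bc6 (0.448), Cracr2b (-0.594), Selplg (-0.0697), Tmem119 (-1.88), Cd37 (-3.45), Pdgfb (-0.14), Kat2a (-0.107) and Sirt6 (-0.146), and in lists of 20000 peaks at Tmem119 (-0.327 kb) and Cd37 (-0.464 kb).

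With the FGR libraries labelled H3K4me3 it turned at P2ry12 (0.871), Maf (0.344), Trim30a (0.00825), B2m (1.54), Selplg (-1.48), Cd37 (-0.229), Pdgfb (-2.17), Rbfox3 (-0.003), Sox10 (-0.289) and Sirt6 (-0.00325), and 13 other genes kept their direction without passing. It was not run for the named regions, since regions were merged anew there.

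Deviations of same-numbered libraries from their group means correlated at r = 0.018, 0.0215, 0.00899 and 0.0126, and those of other pairs at -0.029 to 0.0157. The same number was the best partner of FGR replicates 1, 2 and 3, while FGR replicate 4 correlated best with Ctrl replicate 3 (0.0157). Values this small cannot decide whether the numbers pair the libraries. With the replicate block 4315 gene ends were higher and 4422 lower as deposited, and 3089 and 5129 at equal length; distal regions gave 9553 and 11036, and 4625 and 10378. Depth is unknown, so weak peaks missed in either group cannot be bounded.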
